A study of Homo sapiens with 21 samples.

Results

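MicroRNA precursor loci are the short genes from which the hairpin precursors of microRNAs are cut. Their rows in the count table were chosen by name: the NCBI symbol behind the Entrez identifier had to be MIR followed by a number, or MIRLET7 and what follows, and could not end in HG, which marks a host gene. This rule found 1853 loci among 28395 genes, which is 6.53% of the table. Hs578T, the cell line studied, is an established triple-negative breast cancer line, and its cells were collected 8 h after treatment. RNA was sequenced as 100-base paired ends from unstranded, polyA-selected libraries. The study asked how CDK12/13 inhibition by THZ531, which acts on kinases of the RNA polymerase II tail, changes transcription when it is joined by lapatinib or nilotinib, which are tyrosine kinase inhibitors. The 7 groups were DMSO as control, 0.1 μM THZ531, 3.16 μM lapatinib, 1 μM nilotinib, 0.1 μM THZ531 with 3.16 μM lapatinib, 0.1 μM THZ531 with 1 μM nilotinib, and 1 μM THZ531. Each group had 3 libraries from separate experiments, 21 in all, and a library held between 97612207 and 112229052 counts. The combinations and 1 μM THZ531 are called the strong treatments here, and all comparisons with DMSO share the same 3 control libraries.

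Most microRNAs are cut from long transcripts of RNA polymerase II. DROSHA and DGCR8 release the hairpin in the nucleus, often from an intron or exon of a host gene, and DICER1 then cuts it to the mature strand that an Argonaute protein carries. PolyA-selected libraries hold no mature microRNA, so counts on a precursor locus come from longer RNA that spans it: uncut primary transcript, retained or prematurely ended intron sequence, or host exon. None of the counts below measures a microRNA's abundance in the cell.

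RefSeq's mature sequences (GRCh38.p14) matched 1684 of the 1853 loci and 43 of the 49 that passed the filter on low counts. The sequences shown belong to the loci that the results turn on, written 5′ to 3′ with the seed, bases 2 to 8, in capitals. The first pair shares a seed and comes from MIR195 (chr17:7017615-7017701, minus strand) and MIR497 (chr17:7017911-7018022, minus strand), both in exons of MIR497HG:
miR-195-5p: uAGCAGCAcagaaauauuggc
miR-497-5p: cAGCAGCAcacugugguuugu

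A further pair with a common seed comes from the primate cluster on chromosome 19, from MIR518D (chr19:53734877-53734963, plus strand) and MIR518A1 (chr19:53731006-53731090, plus strand). MIR518E (chr19:53729838-53729925, plus strand) lies in the same cluster and has another seed. These 3 are shown because they had counts in every library and rose with all strong treatments:
miR-518d-3p: cAAAGCGCuucccuuuggagc
miR-518a-3p: gAAAGCGCuucccuuugcugga
miR-518e-3p: aAAGCGCUucccuucagagug

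The next 6 are shown because the locus lies in an intron or exon of a host gene or host RNA from which its counts departed, or belongs to a well-studied family. They come from MIR26B (chr2:218402646-218402722, plus strand), MIR100 (chr11:122152229-122152308, minus strand), MIRLET7A1 (chr9:94175957-94176036, plus strand), MIR616 (chr12:57519163-57519259, minus strand), MIR659 (chr22:37847678-37847774, minus strand) and MIR5193 (chr3:49806137-49806245, minus strand):
miR-26b-5p: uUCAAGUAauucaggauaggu
miR-100-5p: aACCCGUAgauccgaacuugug
let-7a-5p: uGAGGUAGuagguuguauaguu
miR-616-3p: aGUCAUUGgaggguuugagcag
miR-659-3p: cUUGGUUCagggagggucccca
miR-5193: uCCUCCUCuaccucaucccagu

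The next 5 come from loci outside any same-strand host with a row, which rose with the strong treatments: MIR193A (chr17:31559996-31560083, plus strand), MIR199A1 (chr19:10817426-10817496, minus strand), MIR3193 (chr20:31607186-31607240, plus strand), MIR5696 (chr2:101309450-101309534, plus strand) and MIR3648-2 (chr21:8986999-8987178, plus strand):
miR-193a-3p: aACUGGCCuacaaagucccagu
miR-199a-5p: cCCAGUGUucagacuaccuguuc
miR-3193: uCCUGCGUaggaucugaggagu
miR-5696: cUCAUUUAaguagucugaugcc
miR-3648: aGCCGCGGggaucgccgaggg

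The last 4 come from the 3 loci called lower with any strong treatment and from the locus with the most counts: MIR221 (chrX:45746157-45746266, minus strand), MIR4737 (chr17:60043025-60043105, minus strand), MIR4482 (chr10:104268336-104268405, minus strand) and MIR3654 (chr7:133034860-133034915, minus strand):
miR-221-3p: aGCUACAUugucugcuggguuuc
miR-4737: aUGCGAGGaugcugacagug
miR-4482-3p: uUUCUAUUucucaguggggcuc
miR-3654: gACUGGACaagcugaggaa

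Precursor loci were a small and sparse part of these libraries. Of the 1853 loci, 1184 had 0 counts in all 21 libraries and 669 had a count somewhere. Only 49, or 2.64% of the loci, passed edgeR's filter (filterByExpr, a level of 0.0956 CPM, counts scaled to a common library total, in at least 3 libraries), among 16036 genes tested. The 620 other loci with a count averaged at most 5.62 counts a library. Precursor loci together held 28.6 to 31.7 CPM in the DMSO libraries and 29.5 to 37.1 with the single treatments. With the lapatinib combination they held 46.8 to 48.6, with the nilotinib combination 44.3 to 49.1 and with 1 μM THZ531 45.9 to 46.5. All 9 libraries of the strong treatments thus lay above all 12 others.

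Which loci could be tested depended on the treatments themselves. Of the 49, 19 were over the filter level in all DMSO libraries, and 23 were over it in 3 or more of the libraries without a strong treatment. The other 26 would not have passed without libraries of the strong treatments, a choice that favours loci high there, so their calls give no support of their own. In 7 loci all DMSO libraries were at 0: MIR100, MIR150, MIR195, MIR3193, MIR3648-2, MIR5696 and MIRLET7A1. Loci that did not pass also held more counts with the strong treatments. Their summed level was 2.66 to 3.56 CPM in DMSO, 3.71 to 5.47 with the lapatinib combination, 3.56 to 4.58 with the nilotinib combination and 4.35 to 5.65 with 1 μM THZ531.

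The culture carried the marks of its line. VIM, the intermediate filament of mesenchymal cells, stood at 6845 CPM in DMSO and the matrix protein SPARC at 2827, whereas the epithelial adhesion proteins EPCAM and CDH1 were at 0.0364 and 0.205. Other epithelial markers were present: the keratins KRT18 and KRT8 at 83.7 and 20.8 CPM and the transcription factor GATA3 at 17.5. ERBB2 was at 37.5 CPM, ESR1 at 0.364 and PGR at 0. Of the markers of other cell types, CD3E of T cells and CDH5 of endothelium were at 0 in DMSO, the leukocyte phosphatase PTPRC at 1.05 and the endothelial PECAM1 at 0.378. LYZ had 79 counts in DMSO replicate 1 and 8 and 4 in the others. PTPRC had a log2 FC of 0.74 with the lapatinib combination and 0.82 with the nilotinib combination, and passed the call with 1 μM THZ531 (1.14). The adjusted p-values were 0.00206, 8.73e-04 and 2.75e-05 in edgeR (quasi-likelihood, Benjamini-Hochberg). The part of PTPRC in the results for the loci was not tested.

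Applied alone, the inhibitors called no precursor locus in edgeR's quasi-likelihood test. A call here is a Benjamini-Hochberg adjusted p under 0.05 over all genes tested together with a log2 fold change (FC) beyond 1. With 0.1 μM THZ531, 0 of 49 loci were called against 0.886% of all genes, while 7 had an unadjusted p under 0.05 (19.2% of all genes) and DESeq2 called 1. With lapatinib 0 were called against 0.0499% of all genes, 4 had an unadjusted p under 0.05 (7.16%) and DESeq2 called 0. With nilotinib 0 were called against 0.0374%, 5 had an unadjusted p under 0.05 (9.67%) and DESeq2 called 1. DESeq2 gave 15, 22 and 26 of the 49 loci no adjusted p in these comparisons. The locus that it called in both cases was MIR3648-1, with a log2 FC of 2.23 for 0.1 μM THZ531 and 2.59 for nilotinib. Without replicate 3 of 0.1 μM THZ531 or replicate 2 of nilotinib edgeR called 1 locus with 0.1 μM THZ531, and without replicate 2 of nilotinib it called 1 with nilotinib. The median log2 FC of the 49 loci was 0.21, 0.08 and 0.00 in these comparisons, and 0.01, -0.01 and -0.00 over all genes.

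With the strong treatments calls among the tested loci were mostly upward, in a set that the filter had partly chosen for rising. The lapatinib combination raised 30 of 49 loci, against 7.9% of all genes tested, and lowered 2, against 21.3%. The nilotinib combination raised 24, against 6.54%, and lowered 2, against 20.8%. With 1 μM THZ531, 25 were higher, against 5.77% of all genes, and 2 were lower, against 18.9%. Among the 19 loci over the filter level in all DMSO libraries, 8, 4 and 4 were higher and 2 were lower each time. Of the 26 that needed the strong treatments to pass, 21, 19 and 20 were higher. The median log2 FC of the 49 was 1.26, 1.17 and 1.16 in the same order, also with the 7 zero loci set at their lower bound, and -0.01 over all genes each time. These counts moved with the processing. With halved counts 17, 14 and 13 loci were higher, with mitochondrially encoded mRNAs as the scale 19 with the lapatinib combination, and in a fit of only the groups compared 15 with the nilotinib combination and 16 with 1 μM THZ531. With at least 10 counts asked in every library 15 loci remained, of which 8, 5 and 4 were higher. For the 23 loci that passed without the strong treatments the median was 0.69, 0.63 and 0.56. In a bulk library a higher count per cell and a larger share of cells with the RNA cannot be told apart.

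Whether the libraries of a group lay apart from DMSO was counted on scaled values. Among the 23 loci that passed without the strong treatments, all 3 libraries were above all 3 DMSO libraries for 11, 9 and 10 loci (34.8%, 34.6% and 34.4% of all genes) and below for 2, 3 and 3 (38.6%, 38.3% and 37.8%). Among the 26 others, chosen by the filter for high values there, 23, 20 and 22 were above and 0 below. There were 23 loci called higher with all 3 strong treatments, 31 with at least 1 of them, 1 lower with all 3 (MIR4737), 3 lower with any (MIR221, MIR4482 and MIR4737) and 15 with no call.

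**Figure D1:**
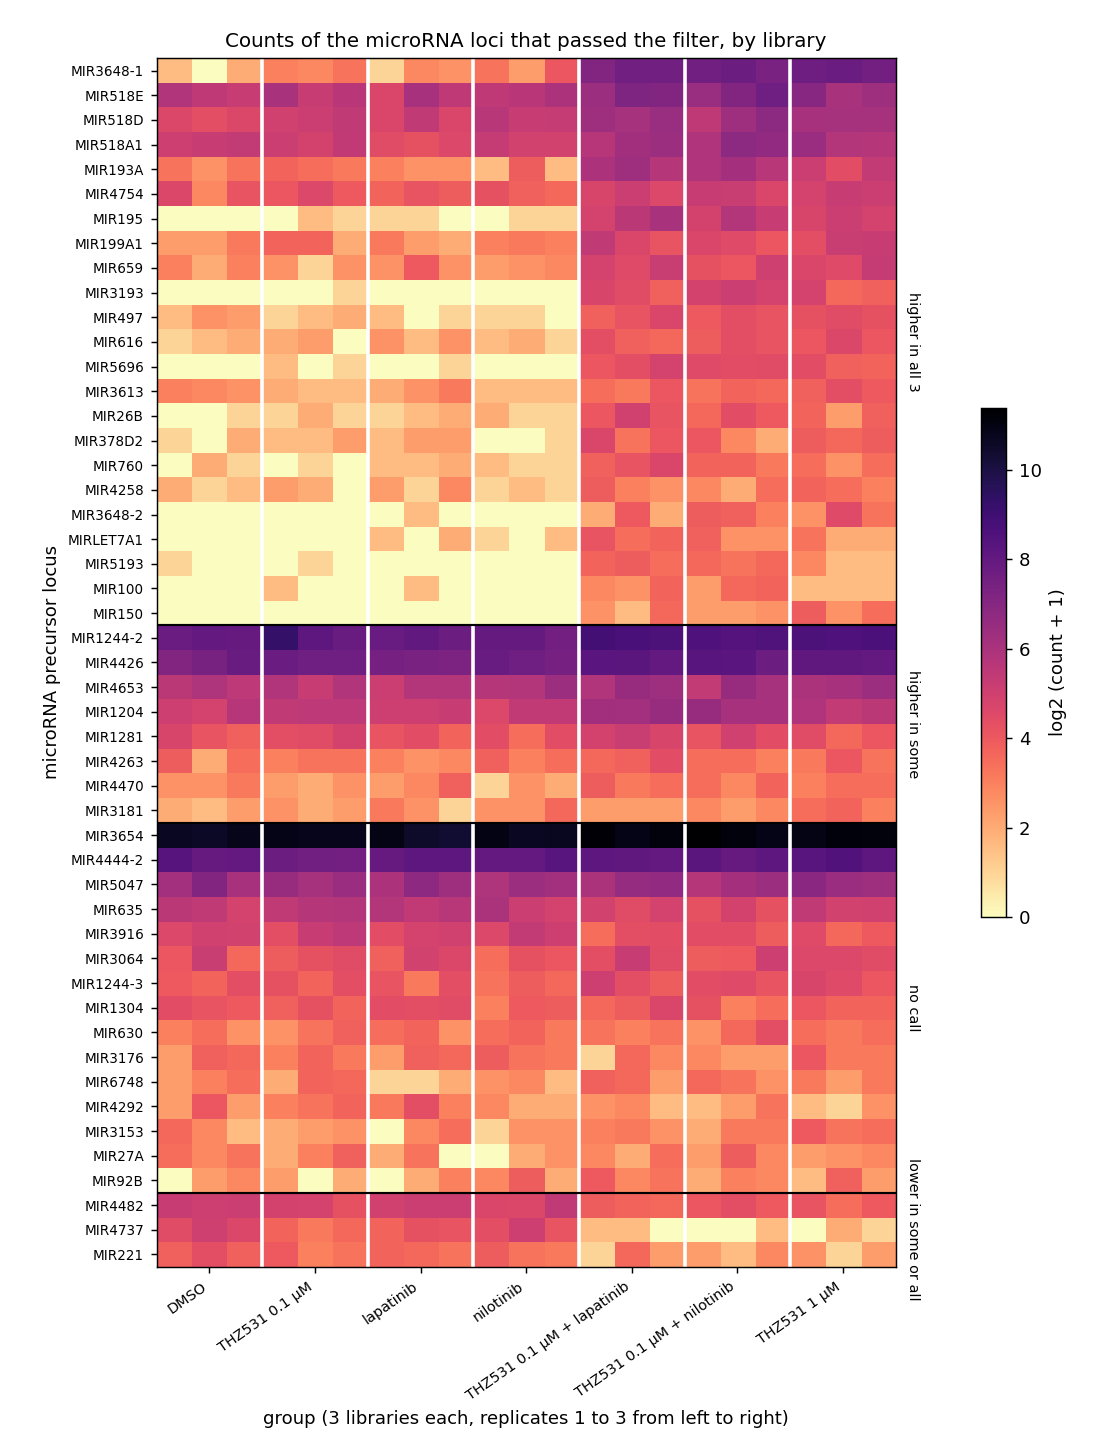
Heat map of log2 (count + 1) for the 49 loci that passed the filter (rows) in the 21 libraries (columns, 3 per group), grouped by their calls against DMSO with the 3 strong treatments. The block of 23 loci at the top, many near 0 in the 12 libraries on the left, is darker in the 9 libraries of the strong treatments, whereas MIR4737 fades there.

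MIR195 and MIR497 make members of the miR-15/16 family, whose seed directs them to mRNAs of cell cycle genes such as cyclins D and E. Both sit in exons of the long noncoding host RNA MIR497HG. MIR497 was chosen for description after its values were seen, as were MIR26B, MIR616, MIR659, MIR5193, MIR518A1, MIR518D, MIR193A, MIR199A1, MIR760, MIR1281 and the loci named only for their host comparison, since they fall outside the fixed rule for naming. MIR195 had 0 counts in each DMSO library, 0, 2 and 1 with 0.1 μM THZ531, 1, 1 and 0 with lapatinib and 0, 1 and 1 with nilotinib. It had 27, 45 and 65 counts with the lapatinib combination, 28, 53 and 37 with the nilotinib combination and 26, 33 and 27 with 1 μM THZ531. The locus was thus at or near 0 in all 12 libraries without a strong treatment and well above them in the 9 others, with no overlap. With a floor of 3 counts over the DMSO group, it was at least 59.8-fold higher with the lapatinib combination, at least 50.9-fold with the nilotinib combination and at least 36.1-fold with 1 μM THZ531. These floors, and the intervals given for ratios further on, cover counting error only and treat counts as independent. Even numbers made up 61.6% to 66.4% of the counts from 1 to 20 in a library. Each library total was also above the number of paired-end reads that the paper gives. If both ends of each read pair were counted, which no source used here states, the intervals are too narrow and each floor would be 0.5 times the value given. The p-values of edgeR (quasi-likelihood, Benjamini-Hochberg) were 2.88e-08, 5.69e-08 and 2.51e-07.

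MIR497 started higher and rose less. Its counts were 2, 5 and 4 in DMSO, 1, 2 and 3 with 0.1 μM THZ531, 2, 0 and 1 with lapatinib and 1, 1 and 0 with nilotinib. They were 13, 17 and 25 with the lapatinib combination, 15, 19 and 17 with the nilotinib combination and 18, 21 and 18 with 1 μM THZ531. All strong libraries lay above all DMSO libraries, while the nilotinib libraries lay below them. The log2 FC was 2.66 ± 0.47 (SE), 2.54 ± 0.47 and 2.65 ± 0.47 for the 3 strong treatments, with adjusted p-values of 4.02e-05, 7.94e-05 and 4.54e-05 in edgeR (quasi-likelihood, Benjamini-Hochberg). MIR497HG itself had 346, 290 and 337 counts in DMSO and 523, 425 and 491, then 544, 456 and 371, then 373, 579 and 476 with these treatments. Its log2 FC of 0.96 ± 0.16, 0.87 ± 0.16 and 0.88 ± 0.16 stayed under the limit of 1. Reads in an exon that is also a precursor belong to overlapping genes, and how the counting assigned them is not given in the sources used here.

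MIR26B lies in an intron of CTDSP1, a phosphatase that removes phosphate from the tail of RNA polymerase II, and its mature strands are known to repress EZH2. It had 0, 0 and 1 counts in DMSO, 1, 3 and 1 with 0.1 μM THZ531, 1, 2 and 3 with lapatinib and 3, 1 and 1 with nilotinib. The strong treatments gave 16, 30 and 17 counts, 11, 20 and 15 counts, and 12, 4 and 13 counts. Every strong library was above every other library. Scaled by TMM, the main scaling, the ratio to DMSO was 82.6 (95% counting interval 14.3 to 3312) with the lapatinib combination, 59.6 (10.2 to 2403) with the nilotinib combination and 36.5 (6.05 to 1490) with 1 μM THZ531. CTDSP1 went the other way. It had 7715, 7459 and 7320 counts in DMSO, 2575, 2831 and 2779 with the lapatinib combination, 2475, 2727 and 2517 with the nilotinib combination and 2404, 2356 and 2525 with 1 μM THZ531. The host's log2 FC was -1.07, -1.17 and -1.30, each ± 0.06 (SE), and it was called lower with all 3 strong treatments.

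MIR616 sits in an intron of DDIT3, which encodes CHOP, a transcription factor of the stress response. It also lies within LOC128125814, a gene on the same strand without a row, and which gene its reads come from was not tested. The counts of MIR616 were 1, 2 and 3 in DMSO, 3, 4 and 0 with 0.1 μM THZ531, 5, 2 and 5 with lapatinib and 2, 3 and 1 with nilotinib. With the strong treatments they were 19, 13 and 11, then 14, 19 and 17, then 16, 24 and 16. No strong library overlapped any other. The log2 FC of MIR616 was 3.14 ± 0.57 (SE), 3.34 ± 0.56 and 3.46 ± 0.56, and edgeR (quasi-likelihood, Benjamini-Hochberg) gave p-values of 5.87e-05, 2.52e-05 and 1.57e-05. DDIT3 had 998, 839 and 745 counts in DMSO and 238, 336 and 324, then 258, 196 and 172, then 230, 136 and 218 with these treatments. The host was called lower each time, with a log2 FC of -1.13 ± 0.26, -1.67 ± 0.26 and -1.81 ± 0.27.

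MIR659 lies in an early intron of ANKRD54, at 8.5% of the host's length. It had 7, 3 and 7 counts in DMSO and 1 to 15 in the libraries of the single treatments. The counts were 27, 22 and 35 with the lapatinib combination, 18, 16 and 31 with the nilotinib combination and 25, 22 and 38 with 1 μM THZ531. The strong libraries were again all above the 12 others. Its log2 FC was 2.67 ± 0.48 (SE), 2.28 ± 0.49 and 2.63 ± 0.48, whereas that of ANKRD54 was -0.67 ± 0.10, -0.58 ± 0.10 and -1.17 ± 0.11, which passed the call with 1 μM THZ531.

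MIR5193 lies in an exon of UBA7, the enzyme that activates the ubiquitin-like protein ISG15. Its counts were 1, 0 and 0 in DMSO and 12, 14 and 10, then 11, 9 and 11, then 6, 2 and 2 with the strong treatments. It was lowest among these with 1 μM THZ531, yet above DMSO throughout. The ratio to DMSO was 47.2 (95% counting interval 7.94 to 1914), 40.1 (6.69 to 1636) and 12.6 (1.79 to 546). UBA7 had a log2 FC of 0.89 ± 0.11 (SE), 0.89 ± 0.11 and 0.67 ± 0.11.

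**Figure D2:**
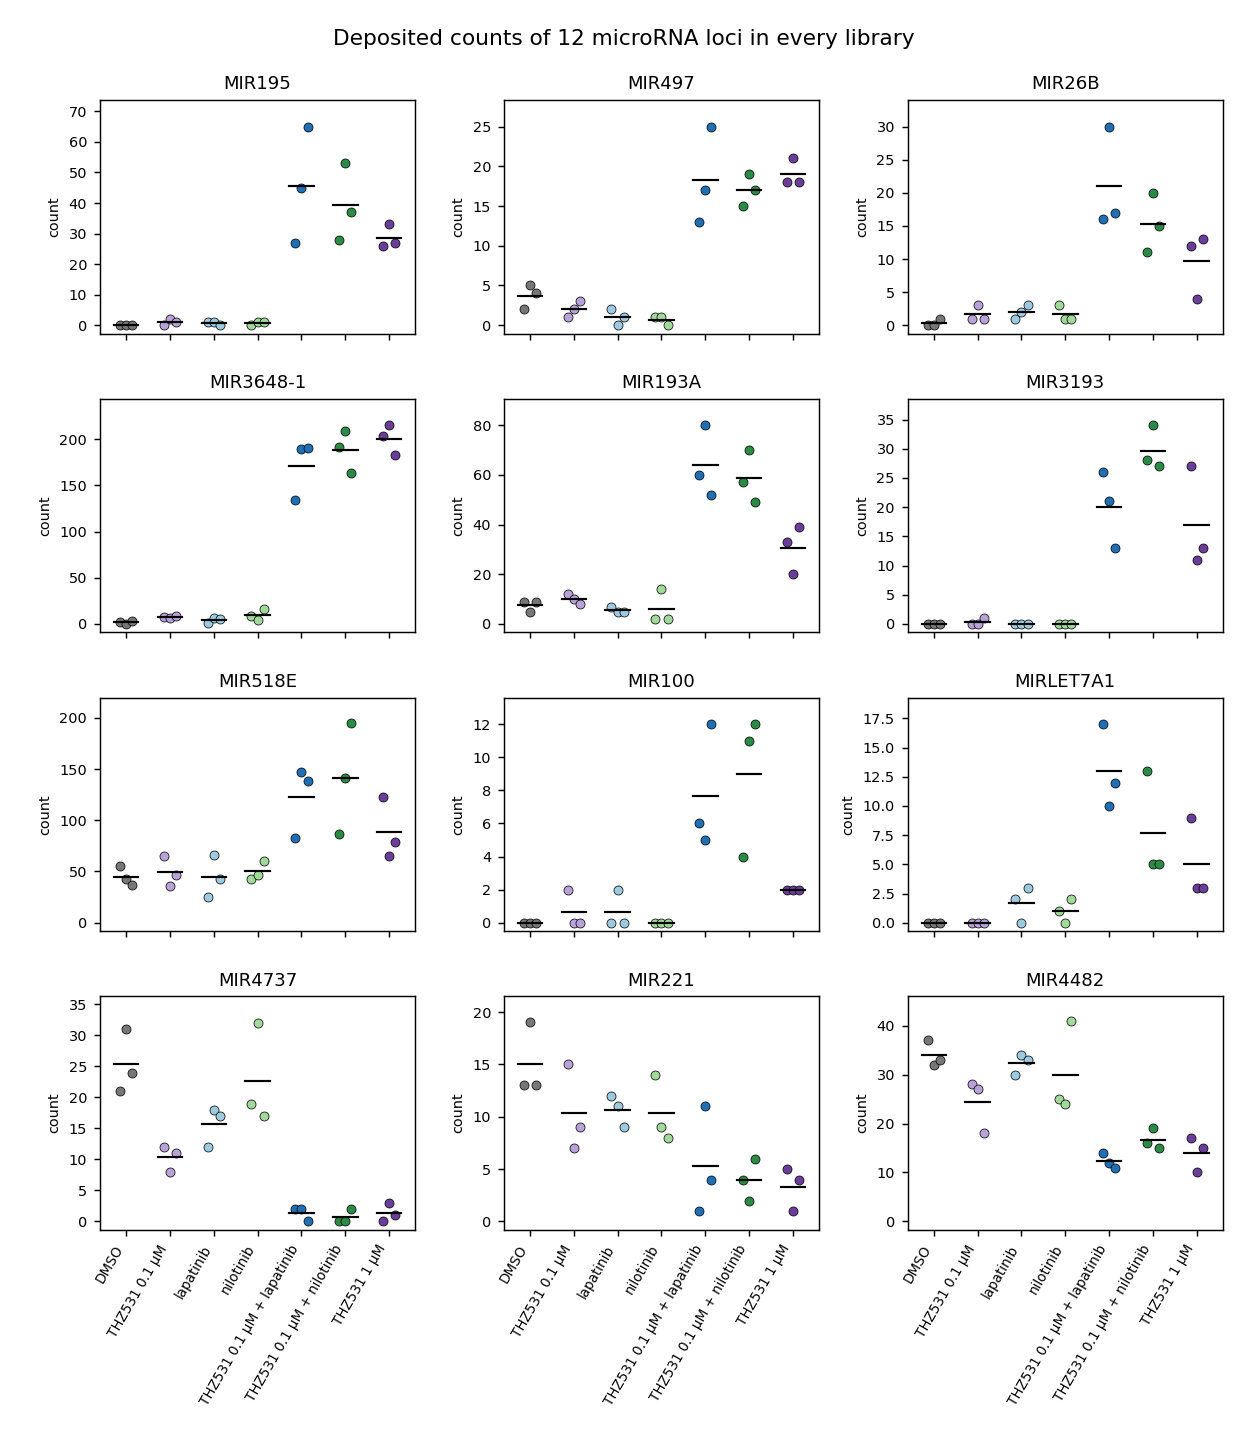
Deposited counts of 12 loci in each library (points, 3 per group, with a bar at the mean), each panel with its own axis. The panels from MIR195 to MIRLET7A1 rise in the 3 groups on the right, and MIR4737, MIR221 and MIR4482 fall there, with 1 lapatinib combination library of MIR221 at 11 counts.

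MIR100 and MIRLET7A1 belong to old families, of which miR-100 is known to repress MTOR and let-7 to repress LIN28B and RAS genes. MIR100 lies in a long intron of the host RNA MIR100HG. It had 0 counts in each DMSO library, 2, 0 and 0 with 0.1 μM THZ531, 0, 2 and 0 with lapatinib and 0 in each nilotinib library. The counts were 6, 5 and 12 with the lapatinib combination, 4, 11 and 12 with the nilotinib combination and 2, 2 and 2 with 1 μM THZ531. These are low counts, and those with 1 μM THZ531 equal the highest of the single treatments. MIR100 was at least 10-fold, at least 11.7-fold and at least 2.52-fold higher than DMSO. Its adjusted p with 1 μM THZ531 was 0.0314 in edgeR (quasi-likelihood, Benjamini-Hochberg). That call was lost when any 1 library of DMSO (adjusted p of 0.0637, 0.0611 and 0.0613 without replicate 1, 2 and 3) or of 1 μM THZ531 (0.0519, 0.0528 and 0.0529) was left out of this edgeR fit, and with mitochondrial scaling (0.069). MIR100HG had a mean of 85.8 CPM in DMSO and 157, 148 and 88.8 with the strong treatments, a log2 FC of 0.87, 0.79 and 0.05 (SE 0.09 each).

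MIRLET7A1 lies within MIRLET7A1HG, which has no row in the count table. It had 0 counts in each library of DMSO and of 0.1 μM THZ531, 2, 0 and 3 with lapatinib and 1, 0 and 2 with nilotinib. The strong treatments gave 17, 10 and 12, then 13, 5 and 5, then 9, 3 and 3. The lapatinib combination was thus highest, and all 3 groups lay above DMSO. The rise was at least 17-fold, at least 9.93-fold and at least 6.29-fold, and edgeR (quasi-likelihood, Benjamini-Hochberg) gave p-values of 6.76e-05, 4.93e-04 and 0.00234.

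The 3 tested loci of the chromosome 19 cluster, a set of microRNAs best known from placenta, were present in every library. MIR518E had 55, 43 and 37 counts in DMSO, 65, 36 and 47 with 0.1 μM THZ531, 25, 66 and 43 with lapatinib and 43, 47 and 60 with nilotinib. With the strong treatments it had 83, 147 and 138, then 87, 141 and 195, then 123, 65 and 79. Its strong libraries were all above DMSO. In counts not scaled for library size, 1 library with 1 μM THZ531 was below the highest of lapatinib (65 against 66). The log2 FC of MIR518E was 1.84 ± 0.35 (SE), 2.02 ± 0.35 and 1.31 ± 0.36. MIR518D had 24, 19 and 24 counts in DMSO and 80, 69 and 89, then 43, 80 and 113, then 67, 69 and 68 with the strong treatments, a log2 FC of 2.21 ± 0.30, 2.19 ± 0.30 and 1.93 ± 0.30. It had 30, 33 and 42 counts with 0.1 μM THZ531, 25, 41 and 25 with lapatinib and 48, 37 and 38 with nilotinib. These unscaled counts were all above DMSO, and nilotinib replicate 1 was above nilotinib combination replicate 1 (48 against 43). The log2 FC with these single treatments was 0.72, 0.55 and 0.91, none of them called. MIR518A1 had 32, 37 and 39 counts and then 50, 75 and 83, 57, 114 and 102, and 86, 53 and 51, a log2 FC of 1.33 ± 0.28, 1.70 ± 0.28 and 1.14 ± 0.28. All 3 loci were called higher in each case, but with mitochondrial scaling MIR518E lost its call with 1 μM THZ531 (0.74). They are close copies of each other and lie in no annotated host, so reads may be divided among them and their single values are uncertain.

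MIR193A and MIR199A1 have mature strands with known targets in growth control, among them KIT for miR-193a. MIR193A, which no annotated gene contains, had 9, 5 and 9 counts in DMSO and 2 to 14 in the libraries of the single treatments. It had 60, 80 and 52 counts with the lapatinib combination, 57, 70 and 49 with the nilotinib combination and 33, 20 and 39 with 1 μM THZ531. The 3 strong groups were apart from the rest, and 1 μM THZ531 was the lowest of them. The log2 FC was 3.43 ± 0.43 (SE), 3.29 ± 0.44 and 2.31 ± 0.45. MIR199A1 lies on the strand opposite DNM2, a dynamin, so with unstranded counting its reads cannot be told apart from those of DNM2. Its counts were 4, 4 and 8 in DMSO and 41, 25 and 17, then 25, 22 and 16, then 19, 35 and 37 with the strong treatments. All of these lay above DMSO. MIR199A1 had a log2 FC of 2.73 ± 0.48, 2.32 ± 0.50 and 2.81 ± 0.48, beside 0.17, 0.31 and 0.42 for DNM2. MIR760, opposite the adaptor gene BCAR3, had 0, 3 and 1 counts in DMSO and 13, 17 and 25, then 12, 12 and 8, then 10, 5 and 10. It was higher with each strong treatment, with a log2 FC of 4.03 ± 0.61, 3.24 ± 0.65 and 2.85 ± 0.67, while BCAR3 was lower, at -1.35, -1.17 and -1.76.

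MIR3193 and MIR5696 were among the loci with the largest fitted rises. MIR3193 starts 676 bases beyond the end of ID1, an inhibitor of DNA binding, on the same strand. It had 0 counts in all DMSO, lapatinib and nilotinib libraries and 0, 0 and 1 with 0.1 μM THZ531. The counts were 26, 21 and 13 with the lapatinib combination, 28, 34 and 27 with the nilotinib combination and 27, 11 and 13 with 1 μM THZ531. The locus was therefore at or next to 0 outside the strong treatments. It was at least 26.2-fold, at least 38.4-fold and at least 21.4-fold higher than DMSO. ID1 upstream of it had a log2 FC of 1.43, 1.23 and 0.75 (SE 0.08 each), with 3383, 3425 and 3450 counts in DMSO. Whether reads on MIR3193 come from transcripts of ID1 was not tested.

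MIR5696 lies in the long noncoding gene LOC105373512, which has no row, 749 bases from the start of RNF149 on the other strand. It had 0 counts in each DMSO and nilotinib library, 2, 0 and 1 with 0.1 μM THZ531 and 0, 0 and 1 with lapatinib. It then had 16, 19 and 27, 22, 20 and 21, and 20, 13 and 12 counts with the strong treatments. The groups were again separate. The rise over DMSO was at least 27.1-fold, at least 27.2-fold and at least 18.9-fold, while the log2 FC of RNF149, a ubiquitin ligase, was 0.08, 0.02 and -0.01. MIR150, known from lymphocytes, had 0 counts in all 12 libraries without a strong treatment. It had 5, 2 and 11 counts with the lapatinib combination, 4, 4 and 5 with the nilotinib combination and 14, 5 and 10 with 1 μM THZ531. That is at least 7.86-fold, at least 5.61-fold and at least 12.2-fold higher than DMSO.

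MIR3648 stands apart because its copies lie in the ribosomal DNA repeats, which RNA polymerase I transcribes. MIR3648-1 (chr21:8208473-8208652, plus strand) lies within the ribosomal precursor gene RNA45SN2, and the rows of RNA45SN5, RNA18SN5, RNA28SN5 and RNA5-8SN5 were at 0 in all libraries. MIR3648-1 had 2, 0 and 3 counts in DMSO, 7, 6 and 9 with 0.1 μM THZ531, 1, 6 and 5 with lapatinib and 9, 4 and 16 with nilotinib. It had 134, 189 and 191 counts with the lapatinib combination, 192, 209 and 164 with the nilotinib combination and 204, 215 and 183 with 1 μM THZ531. All strong libraries were thus many times above all others, and the 3 libraries of 0.1 μM THZ531 and of nilotinib were also above those of DMSO. The log2 FC was 6.96 ± 0.44 (SE), 7.08 ± 0.44 and 7.13 ± 0.44, with adjusted p-values of 2.56e-11, 2.04e-11 and 2.60e-11 in edgeR (quasi-likelihood, Benjamini-Hochberg). With 0.1 μM THZ531 it was 2.12 ± 0.67 (adjusted p = 0.0683) and with nilotinib 2.48 ± 0.63 (adjusted p = 0.0923) in the same edgeR test. MIR3648-2, its copy, had 0 counts in 11 of the 12 libraries without a strong treatment, 2 in lapatinib replicate 2, and 3, 15 and 3, then 14, 13 and 7, then 5, 22 and 9 with the strong treatments. It was at least 9.17-fold, at least 14.7-fold and at least 15.1-fold higher than DMSO. The repeats are near-identical, so how reads were divided between the copies is uncertain.

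The loci with the most counts lie in copies of other genes, and their counts are uncertain for that reason. MIR3654, in an intron of the mitochondrial scaffold gene CHCHD3 and within the pseudogene LOC729998, had 1591, 1503 and 1825 counts in DMSO. With the strong treatments it had 2507, 1901 and 2187, then 2687, 2230 and 1858, then 1929, 2270 and 2189. All 9 lay above DMSO, and the log2 FC of 0.81 ± 0.15 (SE), 0.83 ± 0.15 and 0.71 ± 0.15 stayed under 1. In unscaled counts they overlapped with the single treatments. Replicate 1 of nilotinib had 2031 counts, of lapatinib 1942 and of 0.1 μM THZ531 1907, all above DMSO and above the lowest strong library (1858). Without this locus precursor loci still held 14.43 to 16.02 CPM in DMSO and 24.74 to 28.39, 23.41 to 26.1 and 24.53 to 27.45 with the strong treatments.

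MIR1244-2 (chr5:118974586-118974670, plus strand) lies in PTMAP2, a pseudogene copy of the prothymosin gene PTMA. It had 215, 250 and 240 counts in DMSO, 475, 424 and 396 with the lapatinib combination, 376, 333 and 371 with the nilotinib combination and 396, 376 and 406 with 1 μM THZ531. The 9 strong libraries were above DMSO, but 0.1 μM THZ531 replicate 1 held 623 counts, more than any of them, beside 287 and 221 in the other replicates. The log2 FC was 1.26 ± 0.25 (SE), 0.98 ± 0.25 and 1.07 ± 0.25, beside 1.07, 0.99 and 0.95 for PTMA. MIR4426 (chr1:192716328-192716390, plus strand), in the RPS27A copy RPS27AP5, had 138, 170 and 224 counts in DMSO, with a log2 FC of 1.07 ± 0.17, 0.99 ± 0.17 and 0.91 ± 0.17, beside 0.91, 0.79 and 0.72 for the ribosomal protein gene RPS27A. MIR4444-2 (chr3:75214476-75214549, plus strand), in the HNRNPA3 copy HNRNPA3P6, had 328, 237 and 254 counts in DMSO. Its log2 FC was 0.36, 0.37 and 0.56 (SE 0.13 each), beside 0.32, 0.32 and 0.53 for the RNA-binding protein gene HNRNPA3. Each of these loci changed by about as much as the gene its surroundings were copied from, and how many of its reads belong to that gene was not tested. Calls near the limit moved with the scaling. By library size alone MIR1244-2 had 0.94 with the lapatinib combination and 0.81 with 1 μM THZ531, and MIR4426 0.75 with the lapatinib combination. With mitochondrial scaling these values were 0.59, 0.53 and 0.40, and none of them was called. Calls were also gained. With upper-quartile scaling the nilotinib combination was called for MIR1244-2 (1.13) and MIR4426 (1.14), and 1 μM THZ531 for MIR4426 (1.11). DESeq2 called both loci with the nilotinib combination, at 1.04 each. Single libraries moved the calls too. Without DMSO replicate 1, MIR1244-2 fell to 0.98 with 1 μM THZ531 and MIR4426 to 0.90 with the lapatinib combination. Without DMSO replicate 3, MIR4426 was called with the nilotinib combination (1.21) and 1 μM THZ531 (1.12), and MIR1244-2 with the nilotinib combination (1.01).

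MIR4653 and MIR5047 complete the loci with the highest counts. MIR4653 (chr7:101159473-101159555, plus strand), in an intron of AP1S1, a subunit of a clathrin adaptor, had 46, 58 and 44 counts in DMSO and 55, 92 and 81, then 39, 91 and 69, then 63, 67 and 82 with the strong treatments. On scaled values the lapatinib combination and 1 μM THZ531 lay wholly above DMSO and the nilotinib combination overlapped. Its log2 FC was 1.01 ± 0.30 (SE), 0.80 ± 0.30 and 0.85 ± 0.30, beside 0.63, 0.66 and 0.63 (SE 0.10 each) for AP1S1. The call with the lapatinib combination was lost without DMSO replicate 1 (0.93) or 3 (0.94) and without lapatinib combination replicate 2 (0.85) or 3 (0.95). The value for that treatment was 0.99 with a replicate block, 0.68 by library size alone and 0.33 with mitochondrial scaling. MIR4653 gained a call with 1 μM THZ531 by upper-quartile scaling (1.05) and with the nilotinib combination without its replicate 1 (1.07). MIR5047 (chr17:64501214-64501313, minus strand), in the RNA helicase gene DDX5, had 74, 140 and 67 counts in DMSO and 62, 93 and 104, then 52, 71 and 82, then 116, 86 and 79. The groups overlapped, and the log2 FC of 0.27, -0.09 and 0.32 (SE 0.29 each) passed no test.

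Few loci fell. MIR4737 lies in an exon of HEATR6 near its end, at 94.7% of the host's length, and had 21, 31 and 24 counts in DMSO. It had 12, 8 and 11 counts with 0.1 μM THZ531, 12, 18 and 17 with lapatinib and 19, 32 and 17 with nilotinib. The strong treatments left 2, 2 and 0, then 0, 0 and 2, then 0, 3 and 1. No strong library overlapped any other, and the libraries of 0.1 μM THZ531 and of lapatinib were also below DMSO. The log2 FC was -3.76 ± 0.66 (SE), -4.67 ± 0.74 and -3.81 ± 0.66, with adjusted p-values of 3.81e-05, 1.24e-05 and 3.49e-05 in edgeR (quasi-likelihood, Benjamini-Hochberg). In counts scaled by TMM DMSO was 14.5 times as high as the lapatinib combination (95% counting interval 5.44 to 54.6), 29.3 times the nilotinib combination (7.85 to 247) and 15.1 times 1 μM THZ531 (5.66 to 56.9). HEATR6 fell with it, from 3285, 3170 and 3041 counts to 663, 828 and 719, then 778, 876 and 876, then 905, 734 and 859, a log2 FC of -1.71, -1.54 and -1.60 (SE 0.09 each).

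MIR221 is known for high levels in basal-like breast cancer lines and for repressing the cell cycle inhibitor CDKN1B. It lies in MIR222HG, which has no row. MIR221 had 13, 19 and 13 counts in DMSO, 15, 7 and 9 with 0.1 μM THZ531, 12, 11 and 9 with lapatinib and 14, 9 and 8 with nilotinib. It had 1, 11 and 4 with the lapatinib combination, 4, 2 and 6 with the nilotinib combination and 5, 1 and 4 with 1 μM THZ531. The nilotinib combination and 1 μM THZ531 lay wholly below DMSO, while on scaled values the lapatinib combination overlapped with it. Its log2 FC was -1.09 ± 0.56 (SE), -1.51 ± 0.58 and -1.81 ± 0.60, with adjusted p-values of 0.0856, 0.0266 and 0.0118 in edgeR (quasi-likelihood, Benjamini-Hochberg). The nilotinib combination's call was lost in the same edgeR fit without DMSO replicate 2 (adjusted p = 0.0913), nilotinib combination replicate 1 (0.063) or replicate 2 (0.113). The call with 1 μM THZ531 was lost without its replicate 2 (adjusted p = 0.0652 in edgeR), and the lapatinib combination was called without its replicate 2 (log2 FC -2.15), by library size alone (-1.41) and with mitochondrial scaling (-1.75).

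MIR4482, in the long noncoding gene LOC124902497 without a row, had 37, 32 and 33 counts in DMSO. It had 14, 12 and 11, then 16, 19 and 15, then 17, 10 and 15 with the strong treatments. These 9 libraries were all below the DMSO libraries. The log2 FC was -1.07 ± 0.29 (SE), -0.65 ± 0.27 and -0.94 ± 0.28, and it passed the call with the lapatinib combination. That call was lost with upper-quartile scaling (-0.91) and without lapatinib combination replicate 3, where the value lay at the limit. With mitochondrial scaling MIR4482 was called lower with all 3, at -1.27 with the nilotinib combination. The fall with 1 μM THZ531 was also called by library size alone (-1.20) and without replicate 1 (-1.10) or 3 of that treatment. MIR27A (chr19:13836440-13836517, minus strand), in an exon of MIR23AHG, had 10, 6 and 9 counts in DMSO, 6, 3 and 10, 4, 14 and 6, and 4, 5 and 6 with the strong treatments. The groups overlapped. Its log2 FC was -0.00, 0.31 and -0.40, and MIR23AHG had -0.23, -0.18 and -0.64.

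The tested loci shared little in base composition, and their places in the genome differed. The median GC content of the hairpin was 49.4% in the 39 tested loci with a hairpin sequence, 53.6% in 17 of the 23 loci higher with all strong treatments and 52.1% in 1509 loci of the whole table. In 10 of 49 and 6 of 23 loci no hairpin was matched. Of the 49, 25 lie in a host gene on the same strand that has a row and passed the filter, 7 of them in exons, 14 in introns and 4 in sequence that is intron in the canonical transcript and exon in another. A further 11 lie in a gene without a row or strand, 2 opposite another gene and 11 in no gene. The lapatinib combination raised 12 of the 25 hosted loci, 6 of the 11, both opposite ones and 10 of the last 11. The nilotinib combination raised 10, 4, 2 and 8, and 1 μM THZ531 10, 5, 2 and 8. Of all genes tested, 7.9%, 6.54% and 5.77% were called higher in these comparisons. Over all 49 loci, 21 of 30, 19 of 24 and 20 of 25 loci called higher needed the strong treatments to pass the filter. That choice favours such calls, and the classes were not tested against each other.

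The hosted loci were then set against their hosts within each library, as log2 CPM of the locus minus log2 CPM of the host with a prior count of 2. A scaling factor cancels in this difference. All 141 small genes nested in a tested host entered a limma fit, 25 of them precursor loci and most of the others small nucleolar RNAs, and limma's moderated test was adjusted by Benjamini-Hochberg over the 141. A pair was called at an adjusted p under 0.05 and a difference beyond 1. With the lapatinib combination 9 of 25 loci rose against their hosts (19.1% of all pairs) and 0 fell (6.38%). With the nilotinib combination 9 rose (22.7%) and 2 fell (4.26%), MIR1304 and MIR4737, and with 1 μM THZ531 10 rose (24.1%) and MIR4737 fell (3.55%). The 0 falls with the lapatinib combination are limma's, at the prior count of 2, while 1 locus was called at 0.5, and 15 of the 25 loci had an unadjusted p under 0.05 in that comparison in either direction. Of the 25 loci, 14 had needed the strong treatments to pass the filter, which favoured their rise against hosts that were not so chosen. These 14 made up 7 of the 9, 8 of the 9 and 9 of the 10 rises, and none of the falls. Among the 11 other loci, 2, 1 and 1 rose and 0, 2 and 1 fell. With at least 10 counts in every library 6 hosted loci remained, of which 2, 1 and 1 rose. The median difference of these 11 was 0.35, 0.27 and 0.45, that of all 25 loci 0.64, 0.59 and 0.65, and that of all 141 pairs 0.30, 0.23 and 0.38.

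The 6 loci above their hosts with all strong treatments were MIR26B, MIR616, MIR659, MIR195, MIR497 and MIR100. All 6 needed the strong treatments to pass the filter, so their p-values against hosts were favoured by that choice. For values per length, the host's length was that of its exons merged over all annotated transcripts, so the percentages depend on that choice. Per length, with the read length added to locus and host, MIR26B stood at 0.125% ± 0.217 (SD, n = 3) of CTDSP1 in DMSO and at 0.635%, 0.858% and 0.686% with the single treatments. It reached 21% ± 7.05 with the lapatinib combination, 16.3% ± 3.98 with the nilotinib combination and 10.9% ± 5.37 with 1 μM THZ531. The difference rose by 4.69, 4.38 and 3.81 (SE 0.36 each), with adjusted p-values of 1.03e-09, 4.27e-09 and 2.97e-08 in limma with Benjamini-Hochberg adjustment. MIR616 stood at 1.77% ± 1.09 of DDIT3 in DMSO and at 36.5% ± 18.1, 59.8% ± 18.1 and 76.4% ± 43.5 with the strong treatments, and in 1 library of 1 μM THZ531 at 127%. Its difference rose by 3.52, 4.26 and 4.50 (SE 0.48 each). MIR659 went from 4.79% ± 1.86 of ANKRD54 to 50.6% ± 16.4, 35.6% ± 13 and 68.2% ± 12.9, with differences of 3.04, 2.56 and 3.51 (SE 0.37 each). In these 3 pairs the locus went up while the host's value went down.

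In the MIR497HG exons both parts went up. MIR195 stood at 0% of MIR497HG per length in DMSO and at 4.07% to 6.42% with the single treatments. It reached 205% ± 87.2, 189% ± 71.3 and 130% ± 15.7 with the strong treatments, above 100% in each of the 9 libraries, the lowest at 109%. This measure is no fraction of host transcripts, since MIR27A stood at 306% of its host and MIR3654 at 307% in DMSO. MIR497 went from 21.7% ± 10.7 to 72.1% ± 24.4, 71.6% ± 17.9 and 76.2% ± 12.2. The difference from the host rose by 3.88, 3.79 and 3.35 for MIR195 (SE 0.36 each) and by 1.25, 1.27 and 1.37 for MIR497 (SE 0.31 each). For loci at or near 0 in DMSO the size of this difference depends on the prior count. With nilotinib alone, 1 locus was called against its host (1.42% of pairs): MIR497, at 3.24% ± 2.84 per length, had a difference of -1.27 (limma, Benjamini-Hochberg adjusted p = 0.037). That call was lost when any 1 of 9 libraries was left out, namely DMSO replicate 2 or 3, any nilotinib replicate, replicate 2 of 0.1 μM THZ531 or of the lapatinib combination, lapatinib replicate 3 or replicate 3 of 1 μM THZ531. With a replicate block, with only the groups compared and with hosts free of further overlaps 0 loci were called with nilotinib. With 0.1 μM THZ531 limma called 0 of 25 loci (0% of pairs), 2 had an unadjusted p under 0.05, and lapatinib gave 0 (0.709%) and 3.

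**Figure D3:**
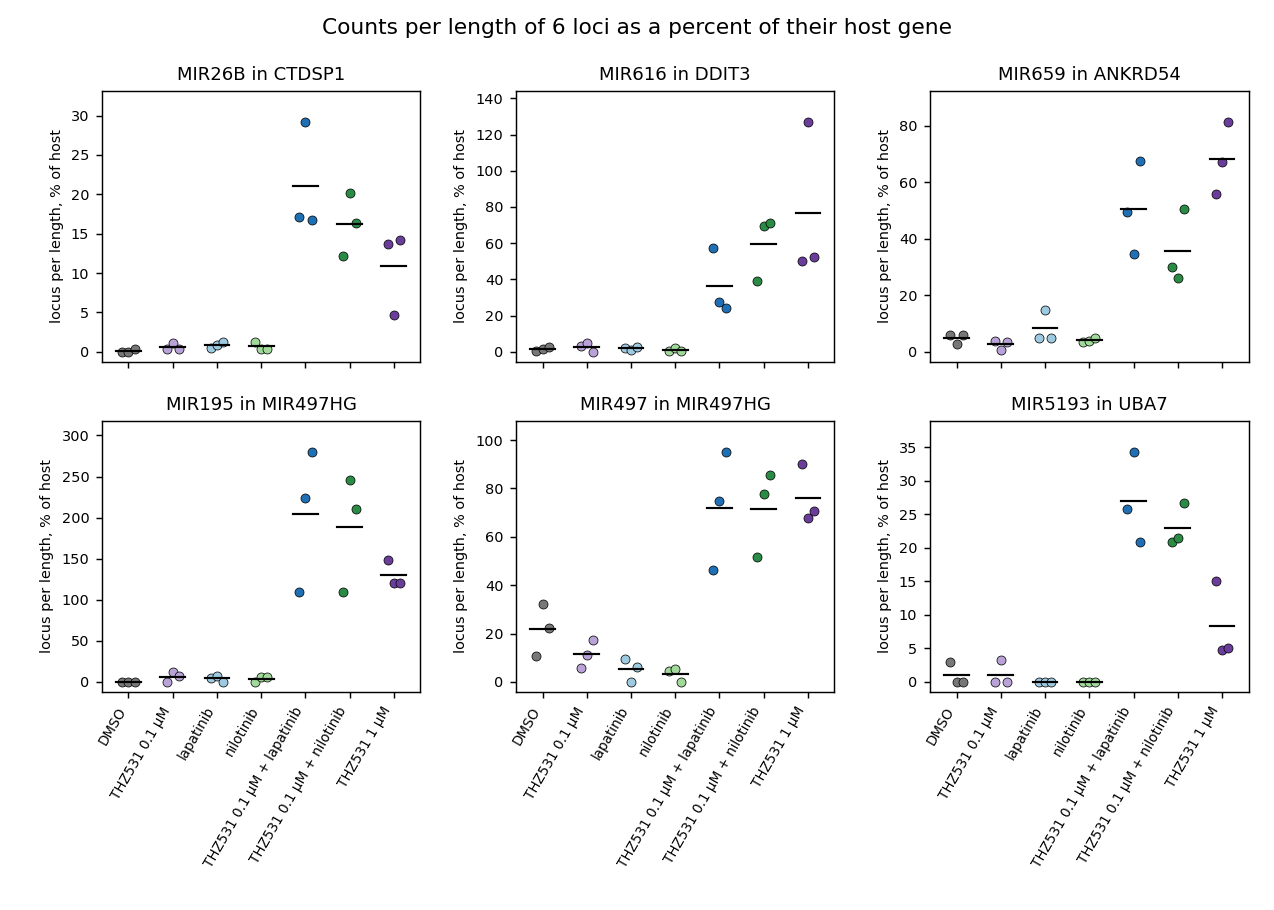
Counts per length of 6 loci as a percent of the counts per length of the host gene, by library (points, 3 per group, with a bar at the mean), each panel with its own axis. MIR195 is above 100% in all 9 libraries of the strong treatments, while MIR26B stays below 30% of CTDSP1.

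Other loci passed the call against their hosts with 1 or 2 of the strong treatments. MIR5193 rose against UBA7 by 2.06 and 1.88 with the combinations, and its 0.75 with 1 μM THZ531 was not called (SE 0.28 each). MIR100, named above among the loci called with all strong treatments, rose against MIR100HG by 1.67, 1.89 and 1.22 (SE 0.38 each). MIR3064 and MIR5047 both lie in DDX5, which had a log2 FC of -0.74 with the lapatinib combination. MIR3064 rose against DDX5 with both combinations, by 1.09 with the nilotinib one, and MIR5047 by 1.06 with the lapatinib one. MIR3181, in the deubiquitinase gene CYLD, rose by 1.30 and 1.65 with the nilotinib combination and 1 μM THZ531. MIR3153 in CKS2, MIR4258 in CKS1B and MIR635 in WIPI1 passed the call with 1 μM THZ531, at 1.82, 1.23 and 1.07. The loci themselves had a log2 FC of 1.16, 2.52 and 0.14 there, beside -0.67, 0.63 and -0.91 for their hosts. Against DMSO, edgeR called MIR4258 higher and not MIR3153 or MIR635. MIR635 also lies opposite PRKAR1A and ARSG, so unstranded counts cannot tell their reads apart. With the lapatinib combination, where these loci were not called against their hosts, MIR4258 had 1.03 and MIR635 0.99, and the treatments were not tested against each other here. Without DMSO replicate 3 the loci above their hosts with 1 μM THZ531 numbered 6 in place of 10. MIR4737 fell against HEATR6 by 1.53 and 1.21 with the nilotinib combination and 1 μM THZ531, and from 31.8% ± 6.73 (SD, n = 3) of it per length to 3.02% ± 5.23 and 6.95% ± 8.36. Without DMSO replicate 2 or 1 μM THZ531 replicate 1 the loci below their hosts with 1 μM THZ531 numbered 0, and without nilotinib combination replicate 2 those with that treatment numbered 1. MIR1304, in TAF1D, fell by 1.15 with the nilotinib combination, as TAF1D had a log2 FC of 0.94.

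**Figure D4:**
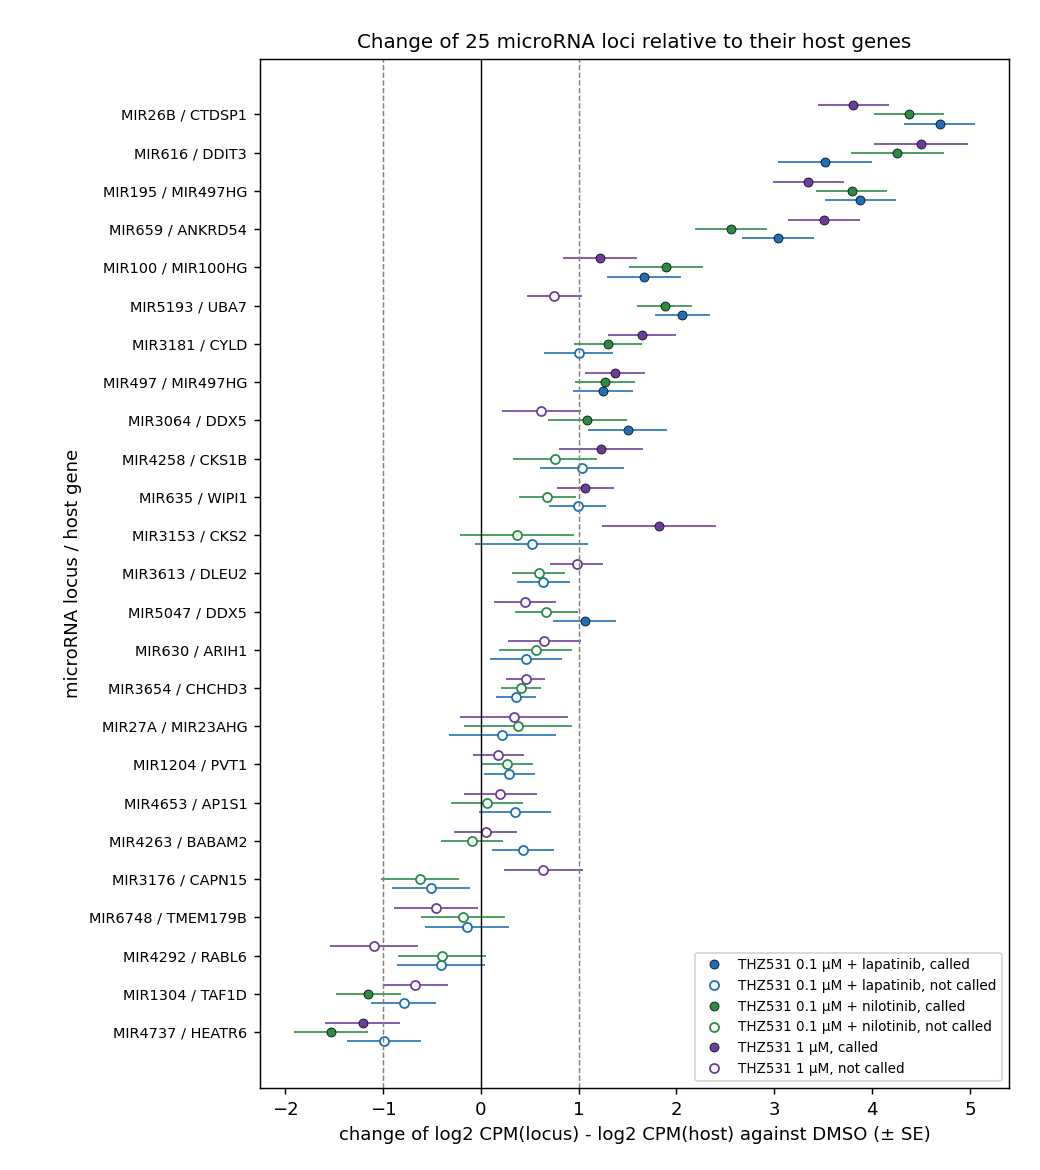
Change against DMSO of log2 CPM of the locus minus log2 CPM of the host for 25 loci, as points with their SE for the 3 strong treatments, filled where called by limma. MIR26B, MIR616, MIR195 and MIR659 stand at the top, between 2.56 and 4.69, and MIR4737 at the bottom, between -0.99 and -1.53.

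The 25 hosted loci have 23 different hosts. Of these, 2, 1 and 0 were called higher with the strong treatments (7.9%, 6.54% and 5.77% of all genes) and 4 lower each time (21.3%, 20.8% and 18.9%), shares near those of all genes. The median log2 FC of these hosts was 0.26, 0.32 and 0.05. Of the 12, 10 and 10 hosted loci called higher, 1, 1 and 0 had a host called higher, 2, 2 and 3 a host called lower and 9, 7 and 7 a host without a call. Where EP300, a histone acetyltransferase, begins, MIR1281 (chr22:41092513-41092566, plus strand) ends 26 bases before its start. MIR1281 had 26, 17 and 13 counts in DMSO and 28, 35 and 26 with the lapatinib combination. It passed the call there (log2 FC 1.06 ± 0.34), while EP300 had -0.88. With the nilotinib combination and 1 μM THZ531, MIR1281 overlapped with DMSO and was not called (0.63 and 0.11). EP300 had -0.81 and -1.23 with these, the latter called lower.

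Well-known microRNAs were mostly not covered. Of 30 loci fixed by name, among them the MIR17 cluster, MIR21, MIR155, MIR210 and the let-7 genes, 4 passed the filter (MIR100, MIR221, MIR27A and MIRLET7A1). A further 14 had 0 counts in all 21 libraries, including MIR17, MIR22, MIR155 and MIR210. MIR21 had 61 counts over all libraries and at most 6 in any, MIR222 had 51, MIR31 20 and MIR34A 14. MIR23A had 4, 3 and 10 counts in DMSO and 10, 8 and 12, then 4, 7 and 7, then 9, 10 and 9 with the strong treatments. MIRLET7I had 10, 5 and 5 counts in DMSO and 5, 4 and 4, then 4, 4 and 2, then 7, 6 and 6. MIR34A had 2, 1 and 1 counts in DMSO and 0 in the 9 libraries of the strong treatments. It also had 0, 0 and 5 counts with 0.1 μM THZ531, 0, 3 and 0 with lapatinib and 0, 1 and 1 with nilotinib. Loci under the filter level were not tested.

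The strong treatments were also compared with each other. Between the lapatinib combination and 1 μM THZ531, 2 of 49 loci were called, a share near the 3.14% of all genes. MIR193A and MIR5193 were higher in the combination, by 1.11 and 1.87 on the log2 scale. Both needed the strong treatments to pass the filter, and MIR5193 passed it through libraries of the combinations, which favours such a difference. DESeq2 called MIR193A only and gave 22 loci no adjusted p, and with mitochondrial scaling edgeR called 0. In this comparison 9 loci had an unadjusted p under 0.05 (38.2% of all genes), and 4 passed after Benjamini-Hochberg adjustment in edgeR without the limit on size. The number called with the limit was 4 without replicate 1 of DMSO, the lapatinib combination or the nilotinib combination. It was 1 without lapatinib combination replicate 2 or 1 μM THZ531 replicate 2. Between the nilotinib combination and 1 μM THZ531 edgeR's quasi-likelihood test called 0, against 2.56%, with 6 at an unadjusted p under 0.05 (33.6%) and 0 by DESeq2, which gave 22 of the 49 loci no adjusted p. Without nilotinib combination replicate 1 or 1 μM THZ531 replicate 1 edgeR called 1. Between the combinations it called 0, against 0.0624%, with 0 at an unadjusted p under 0.05 (12.5%) and 0 by DESeq2, which left 34 loci without an adjusted p. A test that misses the threshold does not show that the loci responded alike.

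Whether the effect of 0.1 μM THZ531 depended on the second inhibitor was tested as an interaction, the change on adding it to the inhibitor minus the change on adding it to DMSO. With lapatinib 14 of 49 loci were called, against 25% of all genes, and with nilotinib 15, against 23.3%, shares near those of all genes. Of these, 13 and 13 had a positive interaction (6.7% and 5.51% of all genes), but 10 and 9 of them needed the strong treatments to pass the filter, which favours a positive value. The 23 other loci gave 3 and 4 positive and 1 and 2 negative calls (negative 18.3% and 17.8% of all genes). The lapatinib count was 8 with halved counts, 22 without a filter and 4 with at least 10 counts in every library, and the nilotinib count 9 with mitochondrial scaling or only the groups compared and 4 with at least 10 counts. Among the loci so favoured, MIR497 had the values 5.07 ± 0.92 (SE) and 5.51 ± 0.96, and MIR193A 3.29 ± 0.71 and 3.15 ± 0.71. Each was higher in the combination than the single treatments add up to. The values of MIR497 exceed its log2 FC against DMSO, which was 2.66 and 2.54 in the combinations. They also hold fitted falls for the inhibitors alone, none called: -1.64 for lapatinib, -2.21 for nilotinib and -0.77 for THZ531 at 0.1 μM. These falls rest on 0 to 3 counts a library, beside 2, 5 and 4 in DMSO. Among the 23 other loci, MIR635 had -1.04 and -1.05, and MIR4737 -1.96 ± 0.88, which was not called, and -3.33 ± 0.96. Counts of MIR635 may hold reads of PRKAR1A and ARSG, which lie opposite it.

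Genes that make and use microRNAs moved in both directions. All 24 on a fixed list were tested. At an adjusted p under 0.05 in edgeR (Benjamini-Hochberg), without the limit on size, 10, 10 and 6 were higher (34.3%, 33.7% and 33.1% of all genes) and 10, 10 and 10 lower (37.8%, 37.3% and 36.8%) with the strong treatments. With the limit edgeR called 0 higher (7.9%, 6.54% and 5.77% of all genes) and 4 lower each time (21.3%, 20.8% and 18.9%), the latter near the share of all genes. Their median log2 FC was -0.22, -0.14 and -0.16. The 4 were DDX17, an RNA helicase of the nuclear processing complex, TUT7, a uridylyl transferase, AGO4, an Argonaute, and LIN28B, which blocks let-7 processing. DDX17 fell from 148 CPM ± 7.08 (SD, n = 3) in DMSO to 33.4, 35.5 and 45.9, and TUT7 from 39 ± 4.93 to 8.86, 9.24 and 13.7. LIN28B fell from 197, 164 and 187 counts to 28, 36 and 30, then 14, 25 and 25, then 55, 56 and 70, a log2 FC of -2.15 ± 0.18 (SE), -2.72 ± 0.19 and -1.26 ± 0.17. DROSHA had a log2 FC of -0.88, -0.71 and -0.43 (SE 0.08 each), DGCR8 0.58, 0.55 and 0.14, and DICER1 0.48, 0.50 and -0.30 (SE 0.15 each), none of them beyond 1. No gene of the list was called with a single treatment.

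Of 25 long noncoding RNAs named as microRNA hosts, 7, 5 and 4 were called higher with the strong treatments (7.9%, 6.54% and 5.77% of all genes). MIR3667HG was the only one lower each time (21.3%, 20.8% and 18.9%). MIR3945HG, in all 3 counts of higher RNAs, had 2, 4 and 2 counts in DMSO and needed the strong treatments to pass the filter. Their median log2 FC was 0.59, 0.43 and 0.41. MIR762HG rose from 278, 325 and 305 counts to 668, 854 and 790, then 507, 560 and 585, then 505, 461 and 500. Its groups did not overlap with DMSO, and the log2 FC was 1.74, 1.23 and 1.02 (SE 0.14 each). MIR155HG, host of an immune microRNA whose own locus was at 0 in all libraries, had a log2 FC of 1.22 ± 0.21, 1.03 ± 0.21 and 0.59 ± 0.21. MIR181A1HG was called higher with all 3, at 1.69 ± 0.46, 1.71 ± 0.46 and 1.40 ± 0.47. MIR3667HG fell from 20.8 CPM in DMSO to 7.03, 6.93 and 9.86, a log2 FC of -1.56, -1.58 and -1.07 (SE 0.10 each).

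**Figure D5:**
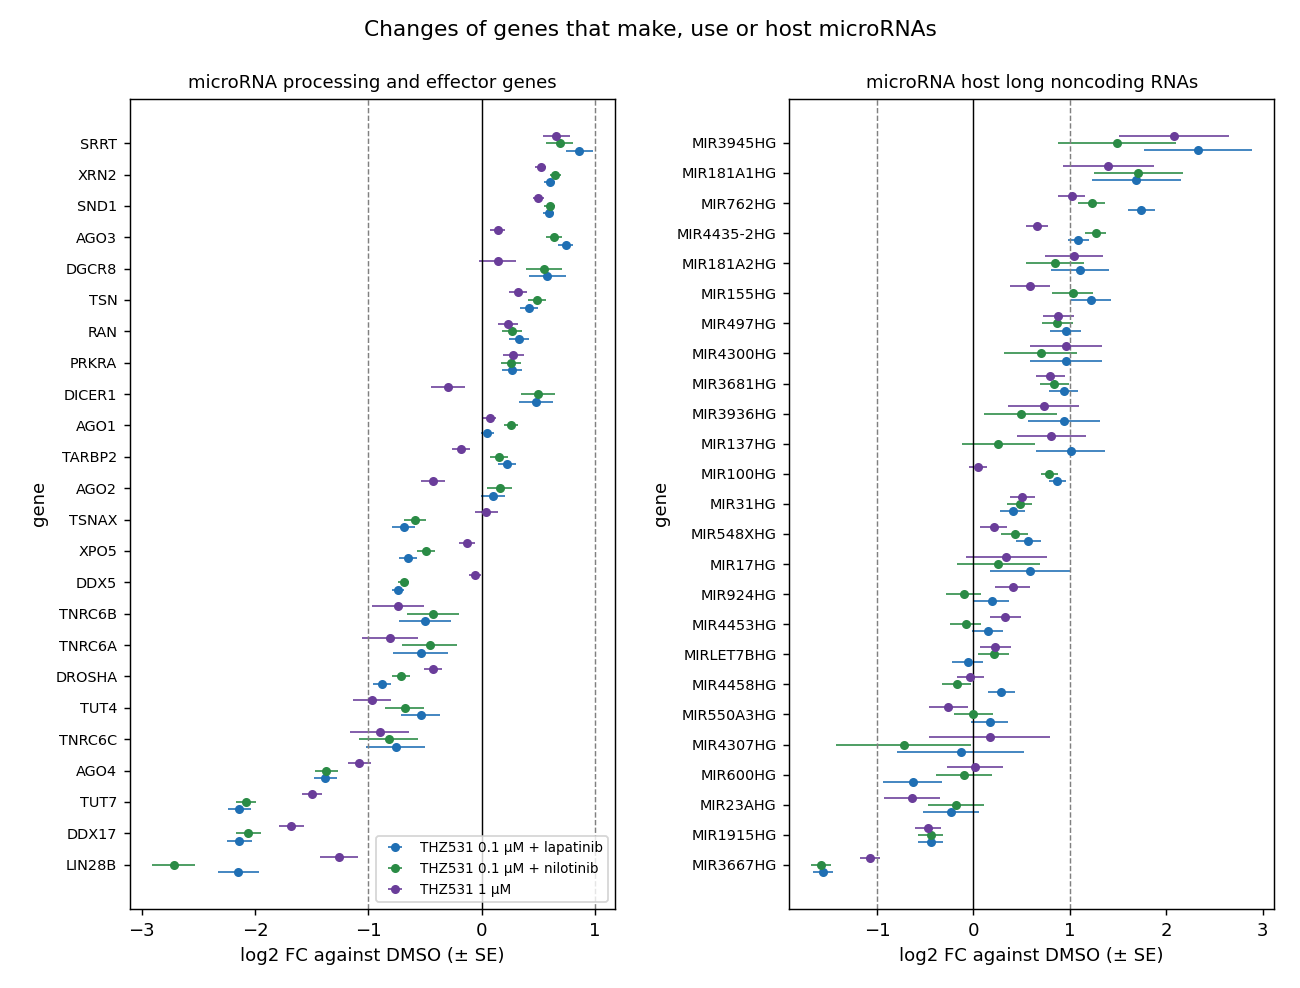
Log2 FC against DMSO with its SE for 24 genes of microRNA processing and action (left) and 25 host long noncoding RNAs (right), for the 3 strong treatments, with dashed lines at -1 and 1. DDX17, TUT7, LIN28B and AGO4 lie left of -1 with each treatment, and MIR3667HG is the only host RNA there.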

How the data were processed

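The authors deposited integer gene counts for 21 libraries, made with HISAT2 2.1.0 on GRCh38 and featureCounts. The annotation is not given, nor whether read pairs or read ends were counted. Of 28395 genes, 27745 were named by Entrez identifier, with 99.98% of all counts. The libraries were unstranded, so a locus may hold reads of an antisense gene, and reads over a host exon belong to overlapping genes. CPM and log2 values were computed here. Low counts were filtered with filterByExpr, which favours loci high in any one group, libraries scaled by TMM and groups compared by the quasi-likelihood test of edgeR 4.0.16 in R 4.3.3. Benjamini-Hochberg adjustment ran over all genes tested. Locus minus host differences went through limma 3.58.1. DESeq2 1.42.0, Python 3.11.15, pandas 2.3.3 and scipy 1.17.1 (exact intervals for count ratios) were also used. Fixed rules named the 6 largest rises and the largest falls with each strong treatment, the 8 highest mean counts and 30 well-known loci. Other loci were picked after their values were seen, and the members and lists were chosen with earlier results of these data known. Alternatives were other scalings and filters, DESeq2, a replicate block, only the groups compared, halved counts, other prior counts, hosts free of further overlaps and each library left out. The code was tested on simulated data: edgeR recovered 200 of 200 genes changed in the simulation and called 1 unchanged gene. Changed genes came only from those with mean counts above those of most tested loci, and all genes had the same simulated spread. Recovery of loci with fewer counts was not tested.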

Additional observations from a re-analysis of the deposited data

Results flagged for a closer look

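The effect of 0.1 μM THZ531 on some loci differed with the second inhibitor, taken as the interaction in edgeR's quasi-likelihood test (Benjamini-Hochberg adjusted). For MIR3648-1 the log2 effect was larger by 3.53 with lapatinib (SE 1.06, adjusted p = 0.00726) and by 2.48 with nilotinib (SE 0.99, adjusted p = 0.0389) than without. For MIR518E it was larger by 1.52 with lapatinib (SE 0.51, adjusted p = 0.0141) and by 1.62 with nilotinib (SE 0.50, adjusted p = 0.0101). For MIR4737 the difference with nilotinib was -3.33 (SE 0.96, adjusted p = 0.00621). MIR3648-1 needed the strong treatments to pass the filter on low counts, which favours a positive value. Positive interactions were called for 13 of 49 loci with each inhibitor, against 6.7% and 5.51% of all genes, and 10 and 9 of these loci needed the strong treatments to pass.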

How the results depend on the processing

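No call of the 19 named loci with a strong treatment turned into a call in the other direction. Uncalled values did change sign: with mitochondrial scaling MIR4444-2 had -0.32 and -0.25 with the combinations and MIR5047 -0.41 and -0.22 with the lapatinib combination and 1 μM THZ531, and MIR27A had -0.31 with the nilotinib combination. With mitochondrially encoded mRNAs as the scale the all-gene median was -0.69, -0.63 and -0.55 for the lapatinib combination, nilotinib combination and 1 μM THZ531 (library size alone -0.34, -0.31 and -0.27, upper quartile 0.15, 0.13 and 0.19), and the members' median was 0.59, 0.56 and 0.60. Counts below follow this order. Mitochondrial scaling gave 19 higher with the lapatinib combination, 4, 4 and 5 lower, 0 between the lapatinib combination and 1 μM THZ531, and 9 nilotinib interactions; 3.43% of all genes were then higher and 38.8% lower with the lapatinib combination. The upper quartile gave 1 lower with the lapatinib combination. Without a filter (669 loci) 48 were higher with the lapatinib combination and 40 with 1 μM THZ531, 1 differed between these, and 22 had a lapatinib interaction. With at least 10 counts in every library (15 loci, 6 with hosts) 8, 5 and 4 were higher, 1, 0 and 0 lower, 0 differed between the lapatinib combination and 1 μM THZ531, 4 and 4 had interactions, 2, 1 and 1 were above the host, 0 and 0 below with the nilotinib combination and 1 μM THZ531, and 0 changed against it with nilotinib. DESeq2 called 1 with 0.1 μM THZ531, 1 with nilotinib and 1 between the lapatinib combination and 1 μM THZ531. A fit of only the groups compared gave 15 higher with the nilotinib combination, 16 with 1 μM THZ531, 1 between the lapatinib combination and 1 μM THZ531, 9 nilotinib interactions, 1 below the host with the lapatinib combination, 0 with 1 μM THZ531 and 0 changed with nilotinib. Halved counts gave 17, 14 and 13 higher, 1 lower with the nilotinib combination and 1 with 1 μM THZ531, 1 between the lapatinib combination and 1 μM THZ531 and 8 lapatinib interactions. A prior count of 0.5 put 1 locus below its host with the lapatinib combination and changed 1 with 0.1 μM THZ531. Hosts with no further overlapping gene gave 0 with nilotinib. Fewer loci or libraries entered the stricter filter and the smaller fits; the other causes were not tested.

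With a replicate block, 0 loci changed against the host with nilotinib and MIR4653 had 0.99 with the lapatinib combination. Same-numbered libraries correlated above 0.1 in 36 of 63 pairs (-0.83 to 0.89, mean 0.15, other pairs -0.07), and 8 of 21 libraries correlated best with their own number. The pairs did not all pass 0.1, and whether equal numbers mark the same experiment is not stated, so the block was kept as an alternative.

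With 1 library left out, 29 to 36, 24 to 28 and 23 to 29 loci were higher. Lower were 1 to 3 (1 without lapatinib combination replicate 3, 3 without its replicate 2), 1 to 2 (1 without DMSO replicate 2 or nilotinib combination replicate 1 or 2) and 1 to 3 (1 without 1 μM THZ531 replicate 2, 3 without its replicate 1 or 3). With 0.1 μM THZ531, 0 to 1 were called (1 without its replicate 3 or nilotinib replicate 2), with lapatinib 0, with nilotinib 0 to 1 (1 without its replicate 2). Between the lapatinib combination and 1 μM THZ531, 1 to 4 (4 without replicate 1 of DMSO or of either combination, 1 without replicate 2 of the lapatinib combination or 1 μM THZ531), and for the nilotinib combination 0 to 1 (1 without its replicate 1 or 1 μM THZ531 replicate 1). Interactions numbered 11 to 18 and 13 to 18. Above the host were 8 to 10, 8 to 10 and 6 to 10 (6 without DMSO replicate 3), below 0 to 1 (1 without lapatinib combination replicate 1 or 3), 1 to 2 (1 without nilotinib combination replicate 2) and 0 to 2 (0 without DMSO replicate 2 or 1 μM THZ531 replicate 1, 2 without its replicate 3). Against the host, 0 to 1 changed with 0.1 μM THZ531 (1 without lapatinib replicate 1 or lapatinib combination replicate 3), 0 with lapatinib and 0 to 1 with nilotinib (0 without DMSO replicate 2 or 3, any nilotinib replicate, replicate 2 of 0.1 μM THZ531 or of the lapatinib combination, lapatinib replicate 3 or 1 μM THZ531 replicate 3). Of 399 values each for 19 named loci, 392, 390 and 388 stayed called or uncalled as in the main fit. Depth limits these loci: most held a few counts a library.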
